A study of Rattus norvegicus with 6 samples.

Results

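The 3 TGF-beta ligand genes Tgfb1, Tgfb2 and Tgfb3 were examined in healing rat tendon. They were chosen by gene ID, as ENSRNOG00000020652, ENSRNOG00000002126 and ENSRNOG00000009867, and all 3 were among the 22250 IDs of the count table. The pairing of these IDs with symbols was given with the choice of genes and could not be checked, because 0 of the 22250 IDs had a match in the RefSeq table used for names. Messenger RNA had been sequenced from tendon of the injured site in 2 groups of 3 rats, with 1 library per rat. The groups were the tendon injury model group and the celecoxib + lactoferrin treatment group. Sprague–Dawley rats, 6 weeks old at the start and given 1 week to adapt, had the achilles tendon transected and sutured in both groups. Every day, rats of the treatment group also received an injection where the tendon had been cut. It held celecoxib (10 mg/kg), which blocks cyclooxygenase-2, together with lactoferrin (2 g/kg), a glycoprotein of milk that binds iron. Tendons were taken on day 14 after surgery, whereas the sample labels give 14 days as an age. The methods describe no vehicle injection for the injury model group. Uninjured tendon and celecoxib alone were not analysed here.

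TGF-beta ligands are secreted in a latent form, bound to their own propeptide, and are released outside the cell. The active dimer binds a type II receptor, which activates a type I receptor that phosphorylates Smad2 and Smad3. In tendon, this signalling is known for driving collagen production and scar formation and for maintaining tendon progenitor cells. Tgfb1 is the ligand most often linked to fibrosis and is made by many cell types, platelets and macrophages among them. Tgfb2 acts in the formation of tendon and skeleton in the embryo, and its product needs the co-receptor betaglycan for efficient binding. Tgfb3 has been studied for repair with less scarring.

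Library totals lay between 34546567 and 47181784 counts. Of the IDs, 15122 passed the filter on low counts and were tested, the 3 ligands among them. Because only the ligands carry a symbol here, the receptors, Smads and target genes of the pathway were not analysed, and neither were the markers of tendon, muscle, platelets or immune cells. In tendon tissue whose cell types were not separated, more cells of a type and more RNA per cell cannot be told apart.

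Tgfb3 had the most counts of the 3 ligands, followed by Tgfb1, and Tgfb2 was close to the limit of detection. This order held in 6 of 6 libraries. Levels are given as CPM, the counts scaled to a common library size after TMM normalization, which balances the libraries over most genes. Transcript lengths were not used here, so CPM of different genes are not levels per molecule. The counts of Tgfb3 were between 133 and 1370 times those of Tgfb2, and the order of these ligands per base could turn only if the Tgfb3 transcript were more than 133 times as long. The counts of Tgfb3 were 2.09 to 4.85 times those of Tgfb1, a range that differences in transcript length could cover, so no order per molecule is given for this pair. Tgfb3 made up between 67.4% and 82.6% of the counts of the 3 ligands together. The lowest share, 67.4% (95% Wilson interval 66.6 to 68.1), was in injury model replicate 1.

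**Figure D1:**
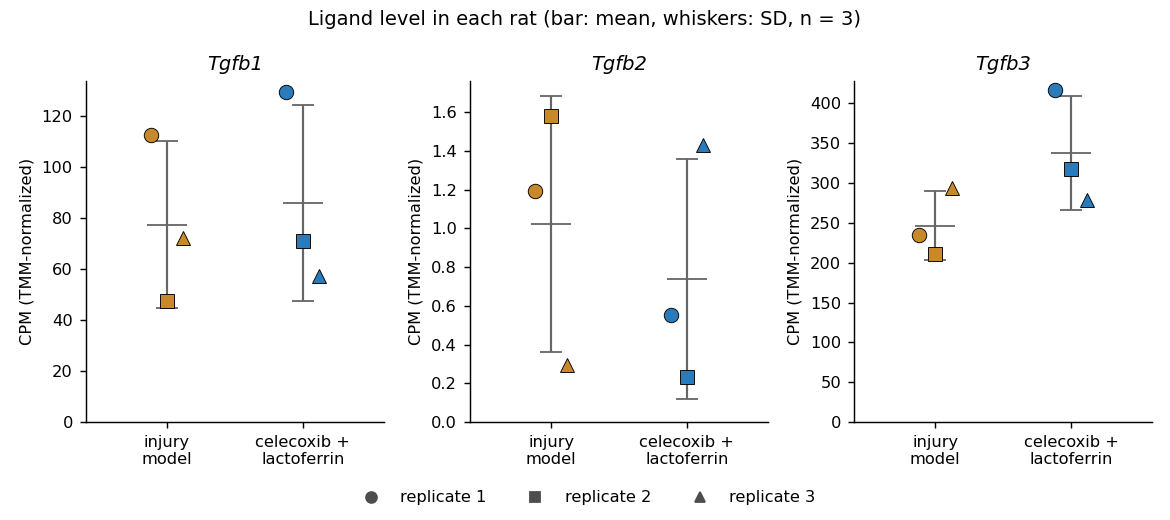
Level of Tgfb1, Tgfb2 and Tgfb3 in each rat, as CPM (TMM-normalized) on linear axes that start at 0, with the groups on the horizontal axis. Points are rats, bars are means and whiskers are SD (n = 3 per group). For every ligand the groups overlap under this scaling: treated rats lie between 279 and 417 CPM for Tgfb3 and injury model rats between 211 and 294 CPM.

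Tgfb3 was the ligand with the largest difference relative to its spread, and the difference did not pass the test. Its levels were 235, 211 and 294 CPM in injury model replicates 1, 2 and 3, from 10060, 10128 and 9924 counts. In treated replicates 1, 2 and 3 they were 417, 317 and 279 CPM, from 14287, 10956 and 14049 counts. Only 1 treated rat, replicate 3, lay below the highest injury model rat, replicate 3. Injury model rats averaged 247 ± 42.8 CPM (SD, n = 3) and treated rats 338 ± 71.5 CPM (SD, n = 3). On the log2 scale the treated group was 0.45 higher (standard error 0.22, 95% interval -0.07 to 0.97), a 1.37-fold difference with an interval from 0.955 to 1.96. The unadjusted p-value was 0.0786 and the adjusted p-value 0.998 in edgeR's quasi-likelihood test, and the gene stood at place 718 of 15122 by p-value. The exact permutation test of log2 CPM gave p = 0.2 (two-sided; 3 rats against 3 allow no p below 0.1).

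Of the settings tried, only library size alone put the unadjusted p-value of Tgfb3 under the 0.05 threshold. With DESeq2, the tool named in the methods of the study, the unadjusted p-value was 0.0533 (log2 difference 0.44). The study called genes at a p-value under 0.05 and lists Tgfb3 among those specific to the celecoxib + lactoferrin group. DESeq2 as run here did not reproduce that call. With edgeR and the size factors of DESeq2 in place of TMM, the unadjusted p-value was 0.0753 (log2 difference 0.44). With edgeR and library size alone, without TMM, it was 0.0372 (log2 difference 0.50). Under this scaling the 3 treated rats, at 406, 317 and 303 CPM, all lay above the injury model rats, at 213, 225 and 287. Over all genes, library size alone put 2.65% under an unadjusted p-value of 0.05 (285 higher and 116 lower in treated rats). It left 8.4% without overlap between the groups. The difference stayed above 0 in each of the 14 other settings, where the adjusted p-value was at least 0.822, and with 1 rat left out in turn it lay between 0.27, without treated replicate 1, and 0.60, without injury model replicate 3.

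Tgfb1 did not differ between the groups beyond the spread between rats, which was wide. Its levels were 113, 47.6 and 72.2 CPM in injury model replicates 1, 2 and 3, from 4818, 2287 and 2438 counts. In treated replicates 1, 2 and 3 they were 130, 71.1 and 57.5 CPM, from 4440, 2453 and 2896 counts. One rat of each group, replicate 1, stood well above the other rats of its group, and the groups overlapped over most of their range. The means were 77.5 ± 32.8 CPM (SD, n = 3) and 86.1 ± 38.4 CPM (SD, n = 3), in the injury model and the treated group. The log2 difference was 0.15 (95% interval -0.80 to 1.10; adjusted p = 0.998, edgeR), so that treated levels from 0.574 to 2.15 times those of the injury model group were within the error. The direction depended on single rats: the difference was -0.27 without treated replicate 1 and -0.10 without injury model replicate 2.

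The 95% Poisson intervals of Tgfb1, which cover counting error only, were 109 to 116 CPM and 45.7 to 49.6 CPM in injury model replicates 1 and 2. Within groups, the SD of log2 CPM was 0.61 for Tgfb1. Among the 1581 tested genes of like abundance (within 0.5 on the log2 CPM scale), 94.6% had a smaller SD, and the median was 0.24. Tgfb3, with an SD of 0.27, lay near the middle of the 363 genes like it in abundance, of which 46.0% had a smaller SD.

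Tgfb2 was detected in every rat at between 8 and 76 counts. Its levels were 1.19, 1.58 and 0.296 CPM in injury model replicates 1, 2 and 3, from 51, 76 and 10 counts. In treated replicates 1, 2 and 3 they were 0.555, 0.232 and 1.43 CPM, from 19, 8 and 72 counts. Each group held both high and low rats, and the highest level was 6.82 times the lowest. The means were 1.02 ± 0.659 CPM (SD, n = 3) and 0.738 ± 0.619 CPM (SD, n = 3), in the injury model and the treated group. The log2 difference was -0.46 (95% interval -2.37 to 1.45; adjusted p = 0.998, edgeR), which leaves room for treated levels between 0.193 and 2.73 times those of the injury model group. With these counts and this spread a difference of the size seen in Tgfb3 was not detectable.

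The levels of Tgfb2 did not overlap between deeper and shallower libraries, which was also so for 15.5% of all genes tested. The 3 deeper libraries, with at least 45097576 counts, were injury model replicates 1 and 2 and treated replicate 3, and they had 1.19 to 1.58 CPM of Tgfb2. The 3 shallower libraries, with at most 35196726 counts, had 0.232 to 0.555 CPM. The nearest pair had 95% Poisson intervals of 0.888 to 1.57 CPM (injury model replicate 1) and 0.334 to 0.867 CPM (treated replicate 1). Tgfb3 was lower in the deeper libraries, at 211 to 279 CPM against 294 to 417 CPM. Scaled by library totals alone, the deeper and shallower libraries had 213 to 303 and 287 to 406 CPM of Tgfb3, which overlap, and 1.08 to 1.69 and 0.232 to 0.540 CPM of Tgfb2. With a term for depth in the edgeR fit, the log2 difference between treated and injury model rats was 0.21 for Tgfb2, 0.32 for Tgfb3 and -0.0026 for Tgfb1, with unadjusted p-values of 0.745, 0.177 and 0.996. The labels name no sequencing batch, and the part of depth in these levels was not tested beyond that term.

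**Figure D2:**
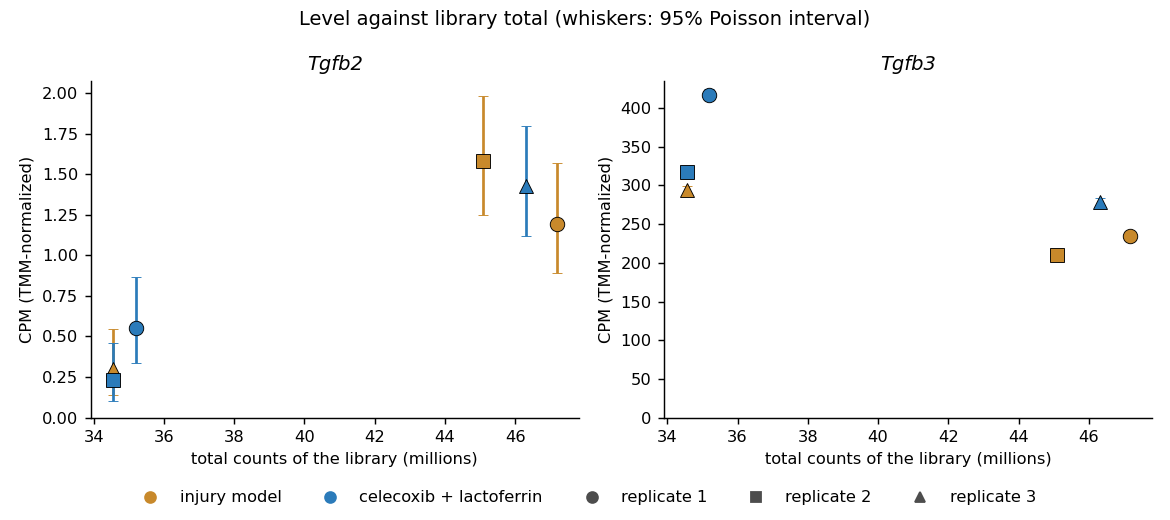
Level of Tgfb2 and Tgfb3, as CPM (TMM-normalized), against the total counts of each library, with colours for the groups, symbols for replicate numbers and whiskers for the 95% Poisson interval of the count. The 3 deeper libraries sit at 1.19 CPM or more for Tgfb2 and the 3 shallower ones at 0.555 CPM or less, and each set holds rats of both groups.

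Ratios between ligands within a library do not depend on how the libraries are scaled, and their difference between groups does not depend on transcript length. They were used to ask whether 1 isoform changed relative to another. The count ratio of Tgfb3 to Tgfb1 was 2.09, 4.43 and 4.07 in injury model replicates 1, 2 and 3. It was 3.22, 4.47 and 4.85 in treated replicates 1, 2 and 3. Replicate 1 had the lowest ratio in each group, lower in the injury model group, and the other rats of both groups lay between 4.07 and 4.85. The mean log2 ratio was 1.74 ± 0.594 (SD, n = 3) and 2.04 ± 0.313 (SD, n = 3), a difference of 0.30 (two-sided exact permutation test, p = 0.5). Without injury model replicate 1 the difference was -0.045.

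The ratios that involve Tgfb2 spread more. The count ratio of Tgfb3 to Tgfb2 was 197, 133 and 992 in injury model replicates 1, 2 and 3. It was 752, 1370 and 195 in treated replicates 1, 2 and 3. The log2 ratio was 0.97 higher in treated rats (two-sided exact permutation test, p = 0.5). The log2 ratio of Tgfb2 to Tgfb1 averaged -6.44 ± 1.48 (SD, n = 3) in injury model rats and -7.11 ± 1.56 (SD, n = 3) in treated rats, a difference of -0.67 (two-sided exact permutation test, p = 0.6). Adjusted over the 3 ratios, each p-value was 0.6, and the smallest p-value the design allows is 0.1. Neither ratio with Tgfb2 overlapped between deeper and shallower libraries. The deeper ones, injury model replicates 1 and 2 and treated replicate 3, had Tgfb3 to Tgfb2 ratios of 133 to 197, against 752 to 1370. Their Tgfb2 to Tgfb1 ratios were 0.0106 to 0.0332, against 0.00326 to 0.00428. Both ratios carry the split in Tgfb2 levels given above, and no share over other pairs of genes was computed. The Tgfb3 to Tgfb1 ratio overlapped between deeper and shallower libraries. The part of depth in these ratios was not tested.

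**Figure D3:**
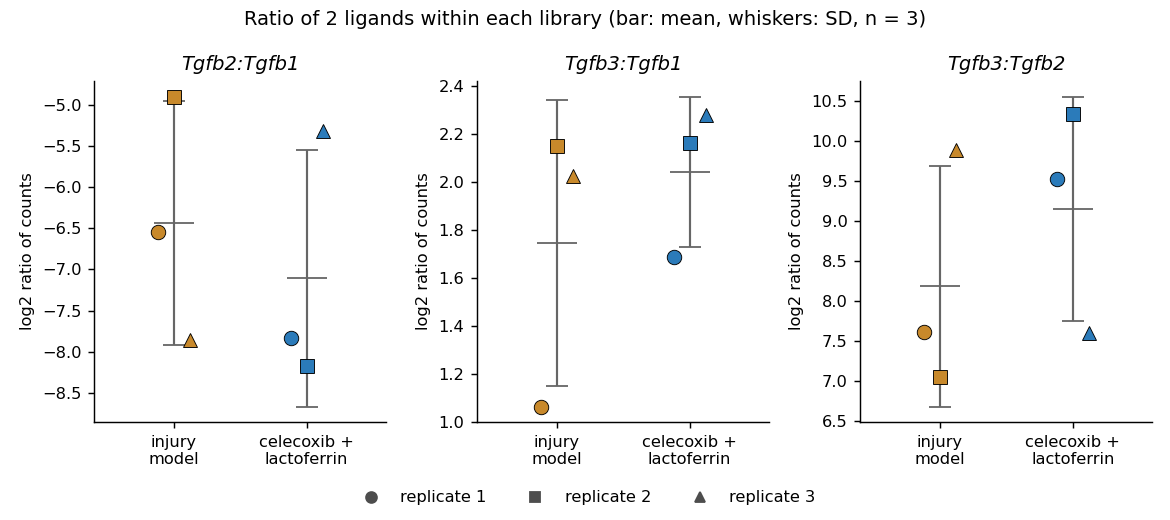
Ratio of the counts of 2 ligands within each library on the log2 scale, for the 3 pairs of ligands. Points are rats, bars are means and whiskers are SD (n = 3 per group), and axes do not start at 0. The groups overlap in all 3 ratios, and the Tgfb3 to Tgfb1 ratio of injury model replicate 1, at 1.06, stands below the other 5 rats.

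Correlations between the ligands over the 6 rats did not pass the exact permutation test. Pearson's r of log2 CPM was 0.58 for Tgfb1 and Tgfb3 (exact permutation p = 0.239), -0.61 for Tgfb2 and Tgfb3 (exact permutation p = 0.208) and -0.25 for Tgfb1 and Tgfb2 (exact permutation p = 0.581). Spearman's rho was 0.60, -0.77 and -0.49 for the same pairs, with exact permutation p-values of 0.242, 0.103 and 0.356. Adjusted over the 3 pairs, the smallest p-value was 0.358 for r and 0.308 for rho. Without the 2 rats farthest from the median of the first ligand of each pair, r was 0.93, -0.92 and -0.93 over the 4 rats left, which are too few for a test. For Tgfb1 the rats left out were replicate 1 of both groups. For Tgfb2 they were injury model replicate 3 and treated replicate 2, which left the 3 deeper libraries and treated replicate 1, a shallower one. The values share their libraries and the scaling between them, and within-group values would rest on 3 rats.

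Against all genes tested, edgeR put 0 of the 3 ligands under an unadjusted p-value of 0.05, where it put 2.61% of genes, and 0 under an adjusted one, where it put 0.00661%. DESeq2, as run here, put 0 of the 3 under an unadjusted p-value of 0.05, where it put 3.21% of genes. With TMM the groups overlapped for all 3 ligands, while 7.8% of genes had groups that did not. The log2 differences of the ligands, -0.46, 0.15 and 0.45 for Tgfb2, Tgfb1 and Tgfb3, stood beside a median of 0.007 over all genes. Over the 6 libraries, 235, 184 and 129 of 15121 genes had r above 0.9 with Tgfb1, Tgfb2 and Tgfb3, and the highest r was 0.996, 0.990 and 0.995. In the opposite direction, 153, 196 and 259 genes had r below -0.9. These genes carry no symbol here and are not named, and with 6 libraries such values say little about any gene.

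**Figure D4:**
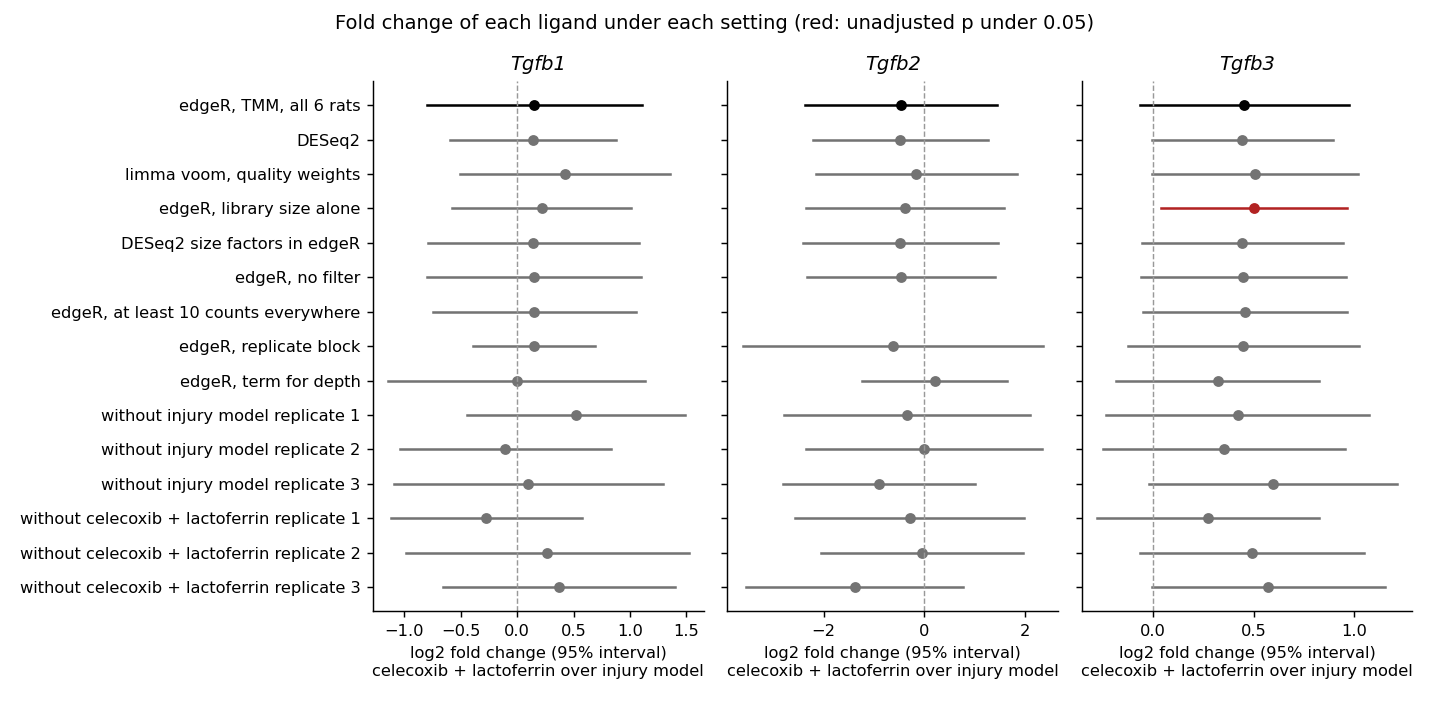
Log2 fold change, celecoxib + lactoferrin over injury model, of each ligand under each test, scaling, filter and set of rats, with 95% intervals. The dashed line marks no difference and red marks an unadjusted p-value under 0.05, which Tgfb3 reached with library size alone (0.0372) and no other setting.

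**Figure D5:**
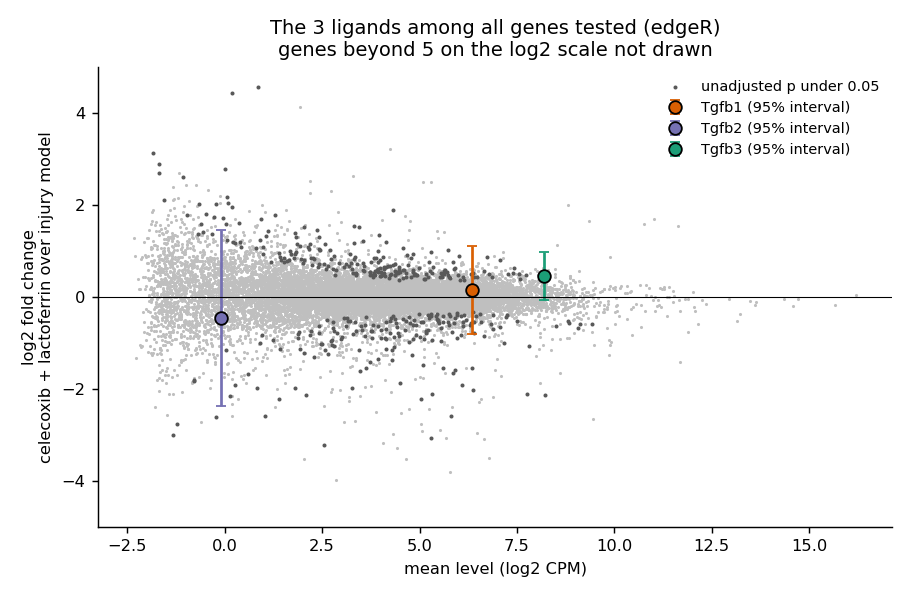
Log2 fold change against mean level (log2 CPM) for the genes tested in edgeR, with genes at an unadjusted p-value under 0.05 in dark grey and the 3 ligands in colour with 95% intervals. All 3 intervals cross 0, and that of Tgfb2, the ligand with the fewest counts, is the widest.

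The 3 genes lie on different chromosomes, and RefSeq's GRCr8 annotation was used to see what surrounds them. Tgfb1 lies between B9d2 and Ccdc97, and Tgfb3 between Ttll5 and Ift43, and neither overlaps another annotated gene. Tgfb2 lies between the coding genes LOC120096340 and Rrp15, and 1 small nucleolar RNA gene, LOC120096377, overlaps it. Whether this overlap touches the counts of Tgfb2 was not tested. The 250 bases before the RefSeq start of Tgfb1, the ligand that varied most between rats for its abundance, are given from RefSeq (GRCr8, plus strand, chr1:90324062-90324311), with CpG dinucleotides in capitals.
Tgfb1: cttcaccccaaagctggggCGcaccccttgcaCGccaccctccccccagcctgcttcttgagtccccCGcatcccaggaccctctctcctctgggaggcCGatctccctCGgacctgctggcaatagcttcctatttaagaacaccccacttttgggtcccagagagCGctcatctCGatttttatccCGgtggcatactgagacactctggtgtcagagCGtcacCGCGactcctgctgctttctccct
This window held 11 CpG and was 60.0% G or C, against medians of 5 and 51.2% over the 33469 windows of the same length. The window of Tgfb2 held 19 CpG (61.6% G or C) and that of Tgfb3 held 5 (48.8%). Both lie within the annotated span of their own gene, where longer transcripts start farther upstream, and are not printed. The window of each ligand was searched on both strands for short motifs, and 0 matches were found in any of the 3. The Smad-binding core CAGAC was in 42.9% of all windows. The AP-1 site TGACTCA was in 4.05% of them and the CRE site TGACGTCA in 1.59%. The Sp1 core GGGCGG was in 30.5% and the TATA box letters TATAAA in 12.9%. No match says only that these letters are not in these windows. The counts measure messenger RNA and not the activity of these promoters.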

How the data were processed

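Per the methods of the study, mRNA and lncRNA libraries were read by Illumina sequencing and, once poor reads had been discarded, aligned with HISAT2 to the Ensembl genome Rnor_6.0. The labels list GRCh38.p13, a human build, although the gene IDs are of rat. The authors deposited 1 table of counts, whole numbers for each Ensembl ID that are not normalized. The counting tool, its strand setting and its treatment of multi-mapping reads are not given in the sources used here. Columns were matched to samples by the group code and number in their names.

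The main test was that of edgeR 4.0.16 (R 4.3.3) over the whole table (filterByExpr, TMM, robust quasi-likelihood fit, Benjamini-Hochberg adjustment over 15122 genes). Log2 CPM used a prior count of 2 and log2 ratios one of 0.5. Exact permutation tests between groups, with all rats, used all 20 assignments of rats to groups. Those of correlations used every ordering of the rats. DESeq2 1.42.0 and limma 3.58.1 (voom) were alternatives, beside other scalings, filters, a term for library depth, a replicate block and each rat left out in turn. The test was checked on simulated counts. No pair of libraries within a group was a duplicate (chi-square per degree of freedom at least 112). Poisson and Wilson intervals cover counting error only, and even values made up 54.7% to 57.6% of counts from 1 to 20, so mates of a read pair may have been counted singly and intervals of low counts may be too narrow.

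The members and lists were chosen with earlier results of these data known. By rule, the 3 ligands were named, and members of lists of pathway genes and markers only where IDs could be matched to symbols; none could, and the lists were left out. Rats sharing a replicate number were not treated as pairs in the main test. The correlation of their deviations lay between -0.27 and 0.057, against -0.31 to 0.30 for rats with different numbers. With 3 rats per group these values cannot show whether the numbers mark pairs.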

Additional observations from a re-analysis of the deposited data

How the results depend on the processing

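The log2 difference of Tgfb3 lay above 0 in all 14 alternatives, with unadjusted p-values from 0.0372 to 0.283, and passed 0.05 only with library size alone (0.50). With each rat left out in turn it ran from 0.27 to 0.60. That of Tgfb1 ran from -0.27 to 0.52 with each rat left out and fell below 0 without treated replicate 1 (-0.27), without injury model replicate 2 (-0.10) and with the term for depth (-0.0026). That of Tgfb2 ran from -1.38 to -0.01 with each rat left out and turned to 0.21 with the term for depth; the filter of 10 counts in every sample removes this gene. No unadjusted p-value of Tgfb1 or Tgfb2 fell under 0.05 in any setting. The cause of these turns was not tested.

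The log2 ratio of Tgfb2 to Tgfb1 turned to 0.10 without injury model replicate 2 (range -1.57 to 0.10 with each rat left out), and that of Tgfb3 to Tgfb1 to -0.045 without injury model replicate 1 (range -0.045 to 0.50). That of Tgfb3 to Tgfb2 ran from 0.38 to 1.82. A prior count of 5 turned no ratio. The order of counts held in 100% of libraries with each rat left out.

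A fit with a replicate block gave log2 differences of 0.15, -0.63 and 0.45 for Tgfb1, Tgfb2 and Tgfb3 (unadjusted p = 0.514, 0.617 and 0.103, edgeR), and changed no call. Under the block 326 genes passed at the unadjusted threshold and 0 at the adjusted one.

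Over all genes, edgeR called 395 (213 higher, 182 lower) at the unadjusted threshold of 0.05 and 1 at the adjusted one. DESeq2 called 314 lower genes and, at the adjusted threshold, 26; library size alone called 285 higher and 116 lower, and the term for depth 223 genes, 85 of them higher. Calls at the adjusted threshold numbered 3 without a filter, 0 with 10 counts in every sample (407 at the unadjusted one) and 0 with voom (506 at the unadjusted one). A log2 fold change of at least 1 left 117, 60 higher and 57 lower. With each rat left out, the genes ran from 226 to 890, the higher ones from 132 to 473, the lower ones from 94 to 417 and the adjusted ones from 1 to 9. Levels per transcript length were not run, since no lengths were at hand, and neither were the pathway lists. Of the ligands, counting error is a limit for Tgfb2, with 8 to 76 counts.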
